A study of Mus musculus with 6 samples.

Results

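Calcium pumps and the channels that release or sense stored calcium were followed in mpkCCD clone 11 cells, a single clone of an immortalised mouse cortical collecting duct line. The genes asked for were 10, taken by platform gene symbol: Atp2c1, Atp2c2, Atp2a2, Atp2a3, Atp2b1, Atp2b4, Itpr1, Itpr2, Itpr3 and Stim1. Of these, 8 genes had probe sets naming them alone, 23 probe sets in all among 28225, or 8 of 12364 named genes. Atp2b4 and Itpr1 had no probe set under their symbols in the table, and their expression was not analysed here. No probe set named a member together with another gene (0). The members were chosen by symbol for their part in calcium handling, but with the difference between dDAVP and vehicle signals in these data known, so their changes are given as a description. The adjusted p-values come from a fit over the whole table and say only on which side of its threshold a probe set fell.

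Cells on a permeable support were left to polarize until the layer's resistance was 5 kohm per cm2 or more. One group then received 0.1 nM dDAVP (desmopressin, a V2 receptor agonist derived from vasopressin) for 5 days, while the control cells received vehicle for the same time. Each group had 3 arrays of total RNA, labelled as biological replicates. The labels do not say whether they were separate passages or days of culture, so p-values here reflect the spread among 6 samples, part of which may be technical.

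Free calcium in the cytosol is kept far below that outside the cell and inside the stores. SERCA pumps (Atp2a genes) load the endoplasmic reticulum, SPCA pumps (Atp2c genes) load the Golgi apparatus with calcium and manganese, and PMCA pumps (Atp2b genes) expel calcium across the plasma membrane. IP3 receptors (Itpr genes) let calcium out of the endoplasmic reticulum when phospholipase C makes IP3, and Stim1 senses the emptied store and opens Orai channels in the plasma membrane. In collecting duct principal cells, vasopressin acts mainly through cAMP and also evokes calcium signals that have been linked to aquaporin 2 traffic.

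All 9 principal cell markers looked for were measured, and all 9 exceeded a mean of 3.56 log2 units, Elf5 narrowly at 3.74. That level, the 95th percentile of the 10 olfactory receptor probe sets in the deposited table, is used below as a dim level. Some markers of other cell types also exceeded it, as given below with Atp2c2. Aqp2, the vasopressin-regulated water channel, went from 6.70 ± 0.042 to 10.85 ± 0.072 log2 units (SD, n = 3). The medians of the 6 arrays spanned 0.043 log2 units. The excess of 3' over 5' beta-actin signal was 0.69 to 0.72 log2 units in vehicle arrays and 0.67 to 0.71 in dDAVP arrays (exact two-sided permutation p = 0.6). The hybridisation controls, added before the arrays were hybridised, were at 10.54 to 10.69 in vehicle arrays and 10.42 to 10.54 in dDAVP arrays (exact two-sided permutation p = 0.1, the smallest that 3 against 3 arrays allow). Signals of different probe sets are not comparable as amounts of RNA, because each depends on its own probes.

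Of the 23 probe sets, that of Atp2c2 passed the test, with a higher signal in dDAVP cells, and the other 22 did not pass. Among all probe sets, 61 of 28225 probe sets passed a Benjamini-Hochberg adjusted p of 0.05 in limma, or 0.216%, of which 53 were higher (0.188%) and 8 lower (0.0283%). The comparison was part of how the genes were chosen, so nothing is read from 1 in 23 against that share. The median log2 change of the 23 probe sets was 0.04, beside 0.0039 over all probe sets. The median size of the change, whatever its sign, was 0.06 for the 23 and 0.06 for all.

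**Figure D1:**
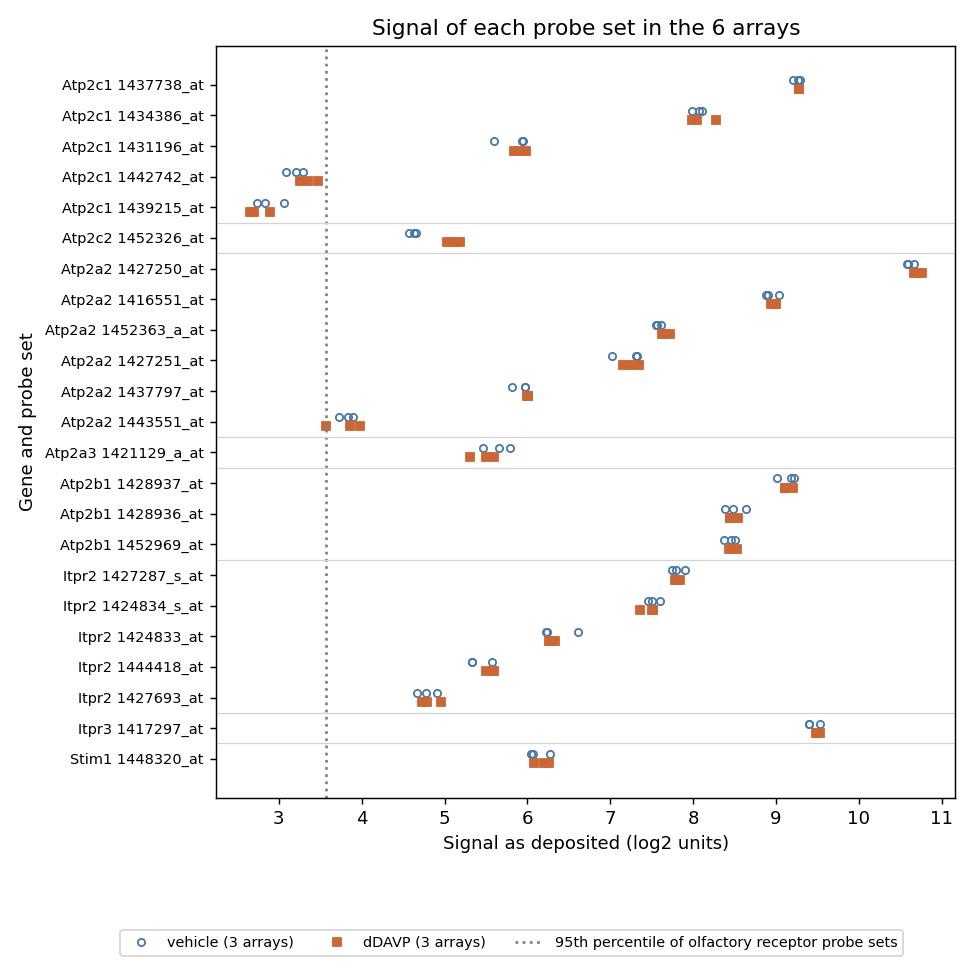
Signal (log2 units, horizontal axis) of each of the 23 probe sets in the 3 vehicle arrays (open circles) and the 3 dDAVP arrays (squares), with the dim level of 3.56 as a dotted line. The groups are clearly apart for Atp2c2, where vehicle arrays lie between 4.56 and 4.65 and dDAVP arrays between 5.02 and 5.19, and 2 Atp2c1 probe sets lie below the dotted line.

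Atp2c2 encodes SPCA2, a Golgi and vesicle pump found mainly in secretory epithelia, which in mammary cells also binds and opens Orai1. Its single probe set (1452326_at) measured 4.56, 4.63 and 4.65 log2 units in vehicle arrays and 5.11, 5.19 and 5.02 in dDAVP arrays. Every dDAVP array was above every vehicle array, and the gap between the groups was wider than the range within either. The mean went from 4.62 ± 0.045 to 5.11 ± 0.082 (SD, n = 3), a log2 change of 0.49 ± 0.066 (SE) or 1.41-fold, with a 95% interval of 1.26 to 1.56. The limma adjusted p over all probe sets was 0.0412. By size this was the 108th change in the table, and 0.383% of all probe sets changed by at least as much in either direction. The signal was dim, above the olfactory receptor level but below the median of all probe sets, 6.72 log2 units.

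The Atp2c2 call lay close to the threshold, with 4 of the 61 passing probe sets having a larger p. The call ended without any 1 of the 6 arrays: the log2 change then lay between 0.45 and 0.53, with adjusted p from 0.0877 to 0.190 in limma. It also ended with arrays scaled to the poly-A controls (0.47, adjusted p = 0.176) and with a variance prior that follows signal level (0.49, adjusted p = 0.0613). The log2 change was positive in each of these fits. Without 1 array this was fixed in advance, because the groups do not overlap, and a variance prior does not alter the change.

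**Figure D2:**
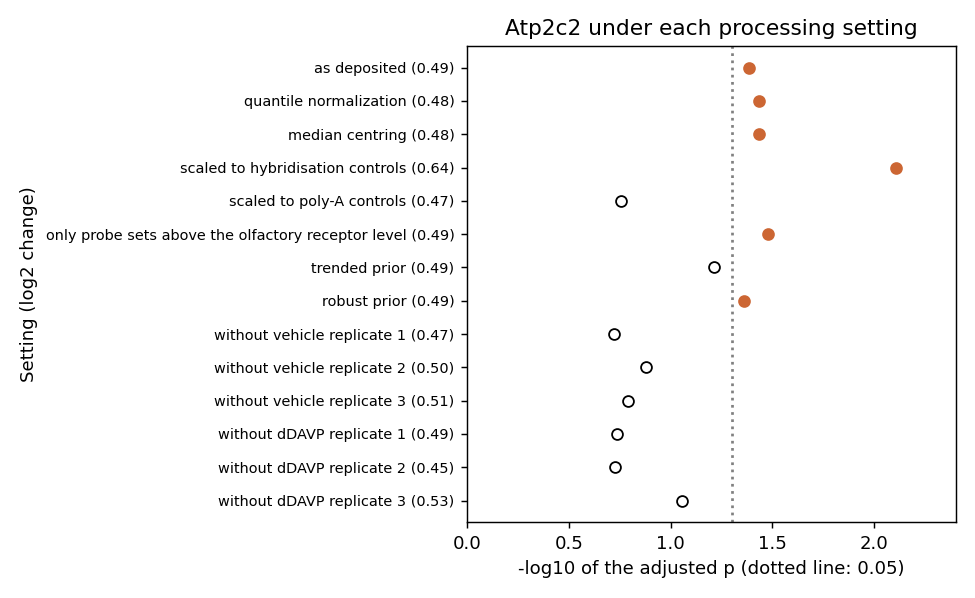
Adjusted p of Atp2c2 (as -log10, horizontal axis, dotted line at 0.05) in limma fits under the processing settings, with the log2 change in brackets. The replicate block, under which Atp2c2 did not pass, is not drawn and is given in the last section. Filled points passed and open points did not, and the change stayed between 0.45 and 0.64 throughout.

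In these bulk arrays more cells of a type and more RNA per cell cannot be told apart. The mean signal of the 9 principal cell markers was 7.04 to 7.09 log2 units in vehicle arrays and 7.695 to 7.772 in dDAVP arrays. That mean is weighted by Aqp2, whose log2 change of 4.15 was the largest, while the median change of the 9 was 0.23. The change was positive in 7 of the 9 and slightly negative for Hsd11b2 (-0.04) and Elf5 (-0.0049). Of the 9 markers 3 passed, all higher with dDAVP: Aqp2, the V2 receptor gene Avpr2 and Fxyd4, a regulator of the sodium pump (0.68 ± 0.069 SE, limma adjusted p = 0.0116). Markers of intercalated cells, which lie among principal cells and secrete acid or base, were measured for 2 of the 6 genes looked for, the proton pump subunits Atp6v1b1 and Atp6v0a4. Their mean signal was 6.48 to 6.59 log2 units in vehicle arrays and 6.73 to 7.01 in dDAVP arrays, so the groups were apart, with dDAVP higher. Neither gene passed (limma adjusted p = 0.153 for Atp6v1b1 and 0.397 for Atp6v0a4). Groups did not overlap in 15.2% of all genes by their brightest probe set. The other 4 (Slc4a1, Slc26a4, Foxi1 and Slc4a9) were not analysed here, and the part of such cells in the Atp2c2 value was not tested. Leukocyte markers were measured for 2 of 4 genes, with a mean of 4.19 to 4.385 in vehicle and 4.465 to 4.51 in dDAVP arrays, and their part was not tested either. Of these the leukocyte-wide Ptprc was under the dim level at a mean of 3.21. Cd68 was above it at 5.56, with a log2 change of 0.20 ± 0.079 (SE) that did not pass (limma adjusted p = 0.593). Among proximal tubule markers 1 of 5 was measured, Lrp2, with 8.25 to 8.45 in vehicle and 8.17 to 8.30 in dDAVP arrays. For thick ascending limb and distal convoluted tubule 2 of 5 were measured, with a mean of 4.315 to 4.431 and 4.369 to 4.499. Trpm6 was above the dim level at 5.85 and Slc12a1 under it at 2.93. For endothelium 1 of 4 was measured, at 3.01 to 3.23 and 2.96 to 3.16, under the dim level, and for muscle 0 of 5.

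Atp2c1 encodes SPCA1, the widely expressed Golgi pump of the same family. Its brightest probe set (1437738_at) measured 9.27, 9.20 and 9.29 log2 units in vehicle arrays and 9.28, 9.28 and 9.27 in dDAVP arrays. The dDAVP values lay inside the range of the vehicle values. The log2 change was 0.02 ± 0.057 (SE), with a 95% interval of -0.11 to 0.15. The difference between these paralogs was not tested. The next probe set, 1434386_at, measured 8.10, 7.99 and 8.07 in vehicle arrays and 8.27, 8.04 and 7.99 in dDAVP arrays. The highest of these 6 values and one of the lowest were both in dDAVP arrays, and the change was 0.05 ± 0.086. The remaining Atp2c1 probe sets changed by 0.08 ± 0.10 (1431196_at), 0.16 ± 0.082 (1442742_at, 95% interval -0.03 to 0.36) and -0.13 ± 0.10 (1439215_at). The last 2, of opposite sign, had means of 3.28 and 2.81, under the dim level, where the array gives little information on Atp2c1.

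Atp2a2 encodes SERCA2, the pump that fills the endoplasmic reticulum in most cells, and was covered by 6 probe sets. The brightest (1427250_at) measured 10.59, 10.66 and 10.59 log2 units in vehicle arrays and 10.67, 10.76 and 10.73 in dDAVP arrays. All 3 dDAVP values were higher, but the lowest of them exceeded the highest vehicle value by less than the range within either group. The log2 change was 0.11 ± 0.059 (SE, 95% interval -0.03 to 0.24), and it did not pass (limma adjusted p = 0.737). The probe set 1452363_a_at measured 7.55, 7.61 and 7.56 in vehicle arrays and 7.66, 7.72 and 7.62 in dDAVP arrays, a change of 0.09 ± 0.059. The probe set 1437797_at measured 5.81, 5.96 and 5.97 in vehicle arrays and from 6.0 to 6.01 in dDAVP arrays, a change of 0.09 ± 0.064. For these also every dDAVP array was above every vehicle array, without passing. Of the 3 other Atp2a2 probe sets, 1416551_at changed by 0.04 ± 0.066, 1427251_at by 0.03 ± 0.098 and 1443551_at by -0.02 ± 0.11. In each the groups overlapped, and 1443551_at had a mean of 3.81, little above the dim level.

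The groups thus did not overlap in 4 of the 23 probe sets, those of Atp2c2 and 3 of Atp2a2, all 4 higher with dDAVP. Of all probe sets 13.4% did not overlap, and 8.07% did so with dDAVP higher. The Atp2a2 probe sets read the same RNA samples, so their values are not separate evidence. The mean over all 6 of them changed by 0.06 ± 0.054 (SE).

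Atp2a3 encodes SERCA3, a reticulum pump of lower calcium affinity found in epithelial and blood cells. Its probe set (1421129_a_at) measured 5.65, 5.79 and 5.46 log2 units in vehicle arrays and 5.60, 5.30 and 5.50 in dDAVP arrays. The groups overlapped, although both the highest value was in a vehicle array and the lowest in a dDAVP array. Its log2 change of -0.17 ± 0.11 (SE, limma adjusted p = 0.779) was the largest in size after that of Atp2c2. The interval ran from -0.41 to 0.08.

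Atp2b1 encodes PMCA1, the plasma membrane pump present in nearly all cells. Its brightest probe set (1428937_at) measured 9.21, 9.01 and 9.18 log2 units in vehicle arrays and 9.20, 9.11 and 9.10 in dDAVP arrays. The dDAVP values again fell inside the vehicle range. The changes of the 3 Atp2b1 probe sets were 0.0039 ± 0.073, -0.03 ± 0.078 (1428936_at) and 0.04 ± 0.063 (1452969_at). All 3 were smaller than their standard errors, and the widest of their 95% intervals ran from -0.21 to 0.15.

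**Figure D3:**
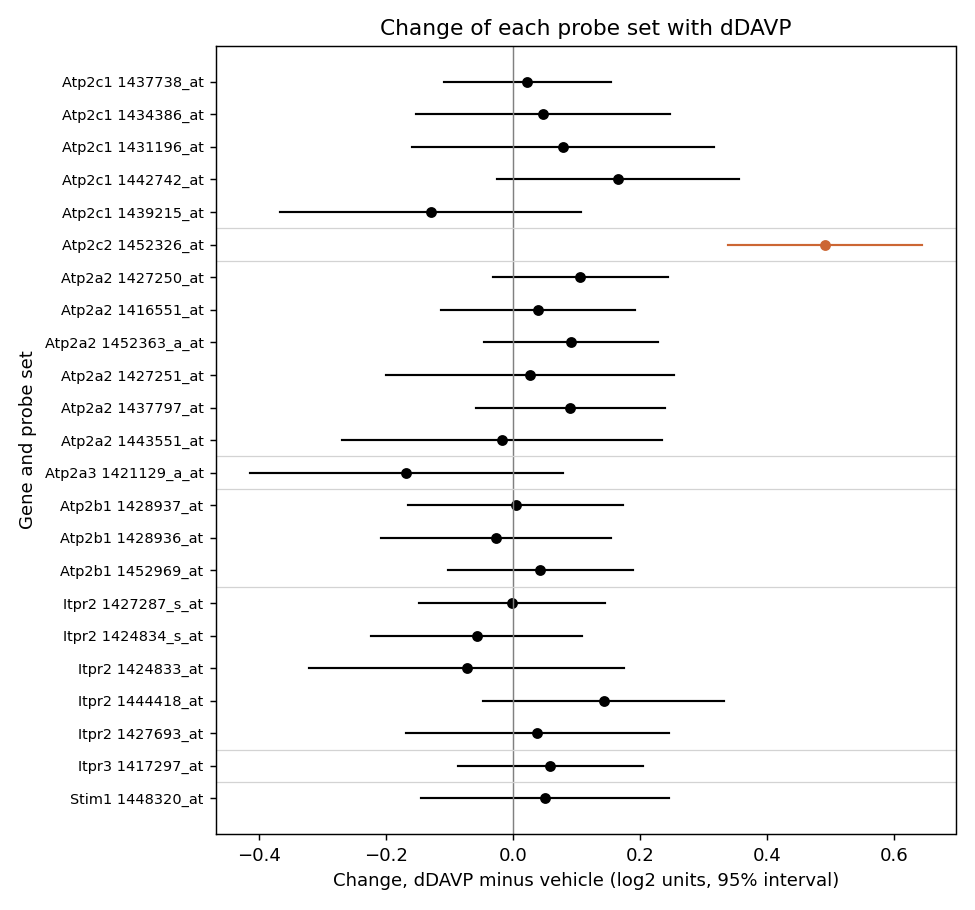
Log2 change (dDAVP minus vehicle) of each of the 23 probe sets with its 95% interval from the limma fit. The interval of Atp2c2 (0.34 to 0.64) is the only one of the 23 that does not cross 0, and the other points lie between -0.17 and 0.16.

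The IP3 receptor genes did not pass the test. Itpr3 encodes the type of receptor typical of epithelia. Its probe set (1417297_at) measured 9.40, 9.53 and 9.39 log2 units in vehicle arrays and 9.48, 9.53 and 9.50 in dDAVP arrays. The highest value was in vehicle replicate 2 and the groups overlapped. The log2 change was 0.06 ± 0.063 (SE, 95% interval -0.09 to 0.20).

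Itpr2, which encodes the type most sensitive to IP3, was covered by 5 probe sets, with a positive value for 2 and a negative value for 3. Its brightest probe set (1427287_s_at) measured 7.75, 7.90 and 7.79 in vehicle arrays and 7.80, 7.78 and 7.84 in dDAVP arrays, a change of -0.0020 ± 0.063. No group stood above the other. The probe set 1444418_at measured 5.33, 5.33 and 5.58 in vehicle arrays and 5.50, 5.58 and 5.59 in dDAVP arrays, a change of 0.14 ± 0.082. Here 2 vehicle arrays were below every dDAVP array, while vehicle replicate 3 lay among them. The same replicate stood apart in 1424833_at, at 6.61 beside 6.23 and 6.24 in the other vehicle arrays and 6.25 to 6.33 in the dDAVP arrays. The change of that probe set was -0.07 ± 0.11, that of 1424834_s_at -0.06 ± 0.072 and that of 1427693_at 0.04 ± 0.089. The mean over the 5 probe sets changed by 0.0095 ± 0.058.

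Stim1, the store calcium sensor, had 1 probe set (1448320_at). It measured 6.05, 6.28 and 6.07 log2 units in vehicle arrays and 6.08, 6.20 and 6.26 in dDAVP arrays. Both the highest and the lowest value were in vehicle arrays, and the groups overlapped. The log2 change was 0.05 ± 0.084 (SE, 95% interval -0.15 to 0.24).

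A probe set that misses the threshold is not thereby shown to be unchanged. Given their standard errors, the 22 probe sets other than Atp2c2 would have needed a log2 change of 0.41 to 0.78 (median 0.57) to pass in the whole table, and the largest seen was 0.17 in size. The smallest change that passed anywhere in the table was 0.46. The 95% intervals of the 22 lay between -0.41 and 0.36, and for each probe set changes within its interval remain possible. Changes smaller than those needed to pass would not have been called with 3 arrays a group. At an unadjusted limma p below 0.05 none of the 22 was found (0), beside 7.98% of all probe sets. That count moved with the settings. With Atp2c2 included, 1 of the 23 had such a p as deposited and 1 with poly-A scaling. There were 7 with hybridisation control scaling and 3 without vehicle replicate 3.

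The sign of small changes depends on the scaling of the arrays. As deposited, the change was positive in 16 of the 23 probe sets and negative in 7. With arrays scaled to their poly-A controls 14 were positive, and with arrays scaled to their hybridisation controls 22 were. Under the latter scaling the median change was 0.15 over all probe sets and 0.19 over the 23. Such scaling shifts all probe sets of an array alike, so the change of Atp2c2 relative to the median of all probe sets, 0.49, is the same by construction, and the sign counts show only that shift.

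**Figure D4:**
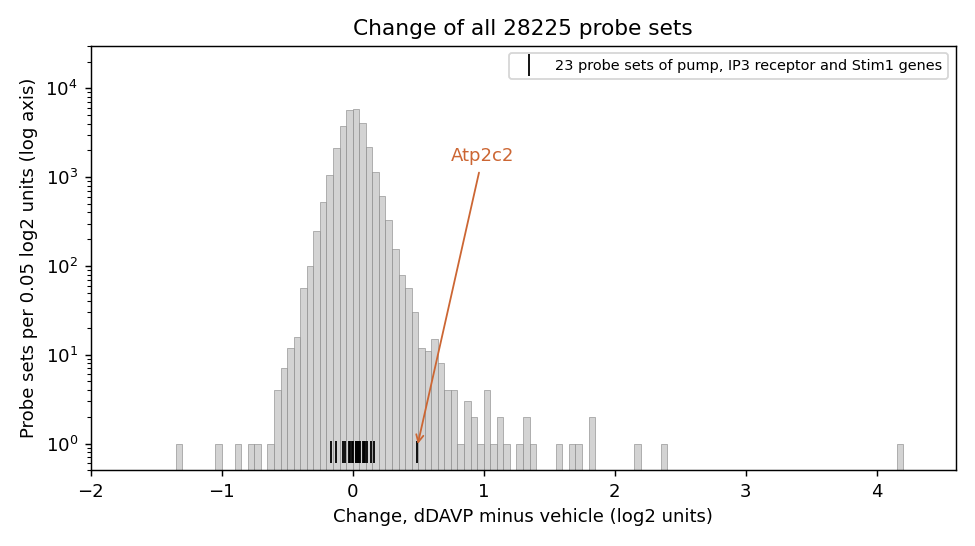
Number of probe sets (log axis) by log2 change, in steps of 0.05, for all 28225 probe sets. The 23 black marks show the pump, IP3 receptor and Stim1 probe sets: 22 lie in the central mass between -0.17 and 0.16, and Atp2c2 lies at 0.49 on its upper edge.

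The promoter windows of these genes were searched for the cAMP response element TGACGTCA and its 5-base half-site TGACG, on both strands, in the 250 bases before annotated starts (RefSeq, GRCm38.p6). The half-site is part of every full element. The table of promoters held 9 windows for 7 of the genes, Atp2a3, Atp2b1, Atp2b4, Atp2c1, Itpr2, Itpr3 and Stim1. Atp2c2, Atp2a2 and Itpr1 were not searched here. The full element was in none of the 9 (0), where 1.55% of all 32851 windows held it. The half-site was in 1 of the 9, that of Stim1, where 17.8% of all windows held it. That window is shown because it was the only match among these genes, at chr7:102267569-102267818 on the plus strand. The half-site is in capitals, and its first base lies 223 bases before the start.
Stim1: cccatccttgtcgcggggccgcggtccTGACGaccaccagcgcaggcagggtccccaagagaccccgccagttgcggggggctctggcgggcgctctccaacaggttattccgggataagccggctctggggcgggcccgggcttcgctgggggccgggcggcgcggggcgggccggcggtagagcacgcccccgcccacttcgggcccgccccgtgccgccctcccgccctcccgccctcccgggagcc
A match is a description of these letters, and the Stim1 signal beside it changed by 0.05 ± 0.084 log2 units.

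The other genes of calcium handling were taken as 10 lists by role, 113 genes of which 84 were measured, each represented by its brightest probe set over the 6 arrays. None passed in limma (0), either by that probe set or by any of their 167 probe sets. The share of all genes that passed was 0.291%. At an unadjusted p below 0.05, 3 were higher and 2 lower, or 5 of 84, where 7.8% of all genes were. The median log2 change was 0.01 for these 84 and 0.01 for all genes.

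Among pump genes outside the set, the plasma membrane pump Atp2b3 was at 0.19 ± 0.18 (SE) and the muscle SERCA1 gene Atp2a1 at -0.08 ± 0.12. Of the 6 measured pump partners none passed (0). Sarcolipin (Sln), a small peptide that restrains SERCA pumps, was at -0.27 ± 0.057, with an unadjusted limma p of 0.00157 and an adjusted p of 0.210. Its signal was dim, 3.86 ± 0.031 in vehicle and 3.59 ± 0.040 in dDAVP arrays (SD, n = 3), close to the level of olfactory receptor probe sets. Neuroplastin (Nptn), a subunit of PMCA pumps, was at 0.09 ± 0.092 and the Golgi calcium and manganese transporter Tmem165 at 0.07 ± 0.061.

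In the store release list 0 of 15 measured genes passed and the median change was 0.0055. The largest changes above the dim level were 0.12 ± 0.057 for Ahcyl2, a relative of the IP3 receptor inhibitor IRBIT, 0.12 ± 0.067 for the scaffold Homer1 and 0.10 ± 0.15 for the counter-ion channel Tmem38b. Of the store-operated entry genes 0 of 10 passed, with a median of 0.02. The channel gene Trpc1 was at 0.18 ± 0.11, the pore subunit Orai1 at 0.10 ± 0.074 and Saraf, which limits Stim1 activity, at 0.09 ± 0.061.

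In the list of IP3 formation and removal 0 of 13 passed, with a median of 0.03. The 3 largest changes were positive and had unadjusted limma p-values of 0.0328 for the phospholipase Plcg2 (0.21 ± 0.080), 0.0142 for the phospholipase Plcd3 (0.20 ± 0.064) and 0.0396 for Inpp5a, which breaks IP3 down (0.14 ± 0.059). Their adjusted p-values were 0.461 to 0.598.

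Lumenal calcium-binding proteins had a median of -0.01 and 0 of 13 passed. They were led by Rcn3 (-0.20 ± 0.087), the chaperone Hsp90b1 (-0.16 ± 0.099) and the Golgi protein Nucb1 (-0.10 ± 0.077). Mitochondrial calcium transport had a median of 0.0055 and 0 of 8 passed, with the uniporter pore Mcu at 0.14 ± 0.078, the exchanger Slc8b1 at -0.12 ± 0.10 and the outer membrane channel Vdac2 at 0.07 ± 0.060. Of the membrane exchange and entry genes only the channel Trpv4 was measured, at 0.12 ± 0.070. Among 3 endolysosomal channels, Tpcn2 was at 0.31 ± 0.15, Mcoln1 at 0.07 ± 0.094 and Tpcn1 at -0.0084 ± 0.096, none passing (0). Of 13 genes for calcineurin, NFAT and calmodulin-dependent kinases 0 passed, with a median of 0.04. The transcription factor Nfatc3 was at -0.16 ± 0.064, the calcineurin subunit Ppp3cc at 0.15 ± 0.066 and the calcineurin inhibitor Rcan1, itself a target of NFAT, at 0.10 ± 0.064.

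**Figure D5:**
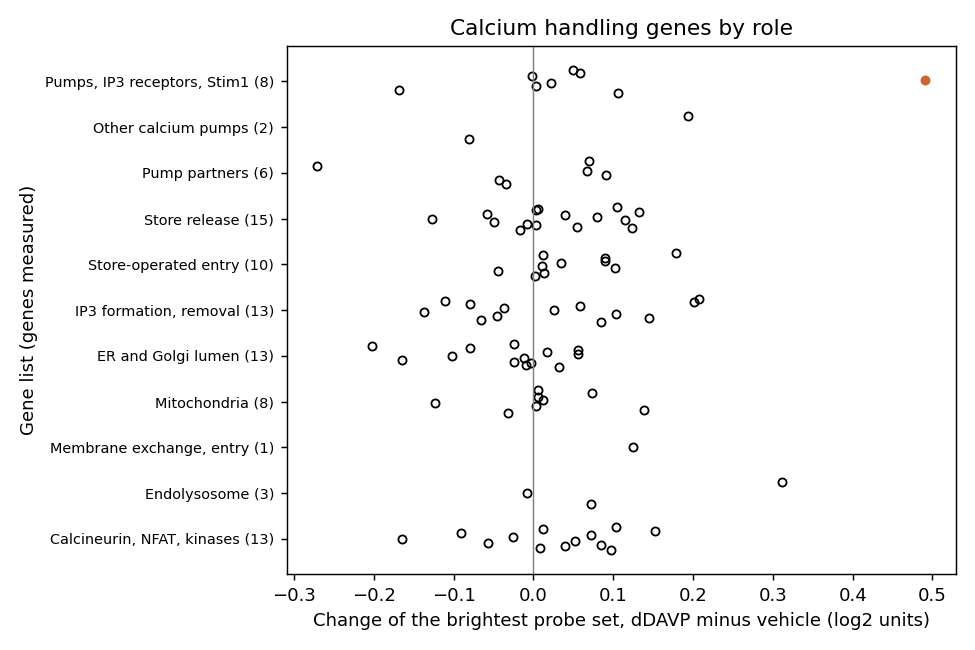
Log2 change (dDAVP minus vehicle) of each measured calcium handling gene by its brightest probe set, in rows by role with the number measured. The filled point is Atp2c2 at 0.49, the 1 gene shown that passed, and the 84 genes of the other 10 lists lie between -0.27 and 0.31.

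The genes whose 6-array pattern lay closest to that of Atp2c2 were found by the root mean square difference between profiles centred on their own means. They were the growth hormone receptor Ghr (0.047 log2 units), the vasopressin receptor Avpr2 (0.050), the glutathione transferase Mgst1 (0.050), Cyfip2, a subunit of an actin-regulating complex (0.051), and the sphingosine kinase Sphk1 (0.054). Their own log2 changes were 0.43 ± 0.062 (SE), 0.52 ± 0.065, 0.40 ± 0.076, 0.51 ± 0.060 and 0.46 ± 0.056. Of these Avpr2, Cyfip2 and Sphk1 passed in limma, while Ghr (adjusted p = 0.0552) and Mgst1 (adjusted p = 0.143) did not. The measure rests on 6 arrays and mostly picks genes with a change of like size.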

How the data were processed

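Total RNA of 6 cultures was measured on Affymetrix arrays, 1 array per sample. The authors deposited log2 signals, 1 per probe set and array, from 2.15 to 14.12 with no further unit given. Affymetrix Expression Console 1.1, MAS5 and RMA are named in the submitters' processing notes, without saying which produced the values. The summary over probes can compress changes of dim probe sets, and whether it did so for Atp2c2 was not tested. Values were used as deposited, without the 62 control probe sets. The deposited table held 28287 rows with those controls, and whether it holds every probe set of the array was not checked. Shares of all probe sets or genes are shares of that table, and a gene absent from it may still be on the array. Groups came from sample titles and gene names from the platform annotation (23097 probe sets with 1 symbol, 611 with several, 4517 with none). Entrez IDs matched 23026 to RefSeq, which changed 0 symbols. dDAVP was compared with vehicle in limma 3.58.1 (R 4.3.3, lmFit and eBayes) over 28225 probe sets, with Benjamini-Hochberg adjustment and a threshold of 0.05. SEs and 95% intervals use limma's moderated variances. The precision is limited by 3 arrays a group, for which the smallest exact p is 0.1.

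The members and the lists were chosen with earlier results of these data known. Named genes were all member probe sets and, in each list, passing genes and the 3 largest changes above the dim level. The 5 nearest profiles to the member with the largest change were also named. The code was tested on simulated data. Alternatives were quantile normalization, median centring, scaling to hybridisation or poly-A controls, 2 filters on dim probe sets, 2 variance priors and a replicate block. Further ones were a threshold of 0.01, each array left out in turn and, for the members and lists, averaging the probe sets of a gene.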

Additional observations from a re-analysis of the deposited data

How the results depend on the processing

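The 61 passing probe sets of the whole table became 282 with arrays scaled to hybridisation controls, 95 when probe sets below the median level were left out, 146 with a trended prior, 24 with a replicate block and 23 at a threshold of 0.01. Leaving out 1 array gave 22 to 46. The 1 passing member, Atp2c2, became 0 with poly-A scaling, a trended prior, a replicate block or a threshold of 0.01, and 0 without any 1 array. It was also 0 under that median filter, which removes Atp2c2 itself. It passed under 5 of 14 alternatives that tested its probe set at 0.05. Averaging the probe sets of each gene, which leaves its single probe set as it was, is not among the 14. That fit gave Atp2c2 an adjusted p of 0.0108 in limma. With the replicate block its log2 change was 0.49 (adjusted p = 0.162). The replicate numbers were not taken to pair the samples: deviations of same-numbered arrays correlated at 0.196, 0.046 and -0.052. The 84 other calcium handling genes gave 0 under every alternative run. With hybridisation scaling the higher share of passing probe sets was 97.5%, beside 86.9% as deposited. That scaling shifts all probe sets of an array alike, and the median change over all of them was 0.15, beside 0.0039 as deposited. What else contributed to these differences was not tested.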
